A study of Mus musculus with 18 samples.

Results

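Embryonic fibroblasts of homozygous mutant mice were compared with wild-type (wt) fibroblasts when both had been exposed to TGFb1 for 4 h. The comparison sets the 2 arrays labelled homozygous_TGFb_4hr against the 2 arrays labelled wt_TGFb_4hr, which are 4 of the 18 arrays of the series, and it measures the level that each genotype reached under ligand rather than its fold response. The cells came from fetuses of stage E12.5 to E14.5 that were minced and trypsinised after head, liver and blood clots had been taken off, so the cultures can hold other cell types of the fetal body. Both groups were grown in serum-containing medium and received 5 ng/mL TGFb1, and RNA was measured on Affymetrix mouse expression arrays. Untreated cells and cells at 24 h of both genotypes, and heterozygous cells at 4 h, 2 arrays each, served as points of reference. What the allele changes is given in 2 ways by the submitters, as a point mutation of the receptor TGFBR1 and as a constitutively active TGFb1, so it is called the mutant here. The labels do not say how many fetuses or cultures lie behind the 2 arrays of a group. P-values therefore measure only the spread between replicate arrays, which the fit pooled over all 9 groups.

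TGFb ligands bind a complex of the type II receptor Tgfbr2 and the type I receptor Tgfbr1, and the activated type I receptor phosphorylates Smad2 and Smad3. These join Smad4, enter the nucleus and regulate target genes, among them inhibitors of the same pathway such as Smad7 and Skil. In fibroblasts the pathway is known for raising extracellular matrix, contractile and cytokine genes.

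Levels are log2 values of the background-corrected intensity that was deposited, and a level under log2 5 is called dim. Between 39.55 and 39.92% of the probe sets lay above the dim level in the 4 arrays. The fibroblast label was borne out by its markers: of 11 fibroblast markers on the array, 11, 10, 10 and 10 were at or above the dim level in wt array 1, wt array 2, homozygous array 1 and homozygous array 2. The collagen gene Col1a1 stood at 14.89 and 14.64 in the wt arrays and at 14.89 and 15.11 in the homozygous arrays. The intermediate filament gene Vim stood between 15.71 and 15.85 in all 4, while the receptor gene Pdgfra was near or under the dim level in them (5.35 and 4.08 in wt, 4.53 and 4.19 in homozygous cells). The 2 wt arrays stood further apart than the 2 homozygous ones, with a root mean square SD between replicates of 0.387 against 0.196 log2 units over the genes tested. The tests used 1 spread per gene pooled over all groups, which over these genes is smaller than that of the wt arrays. Xist, the RNA of the inactive X chromosome in female cells, was at 1.59 and 11.27 in wt arrays 1 and 2 and at 11.36 and 2.68 in homozygous arrays 1 and 2, so each group held 1 array with high and 1 with low Xist. The Y-linked genes Kdm5d, Uty and Eif2s3y ran the opposite way, so the 2 arrays of a group were not repeats of 1 RNA.

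Among 10078 genes, 144 (1.43%) differed between homozygous and wt cells after 4 h of TGFb at an adjusted p under 0.05 (limma, Benjamini-Hochberg over all genes tested, as for each adjusted p given here). Of these, 110 were higher in homozygous cells (1.09%) and 34 were lower (0.337%). Without any test, the 2 arrays of one genotype both lay beyond those of the other for 39.7% of all genes. By the estimated difference, 73 of the 110 rises exceeded 2-fold, against 12 of the 34 falls. The first count includes rises with both wt arrays dim, whose size is only bounded, while 0 falls had both homozygous arrays dim. The 2 counts therefore do not show that the rises were larger. The median difference over all genes was 0.0257 log2 units, and 1525 genes passed an unadjusted p of 0.05. A change is called here where it passed the adjusted threshold. The share called in each gene list below is to be read beside the 1.43% of all genes. Many of the rises began near the detection limit, since both wt arrays were dim for 28 of the 110 (4 of them with the homozygous arrays also dim), and such a rise is given as a bound. The count rested on the arrays of both groups: it was 1073 without wt array 1, 190 without wt array 2, 41 without homozygous array 1 and 16 without homozygous array 2. With only the 4 arrays in the fit, limma called 0 genes, with 837 at an unadjusted p under 0.05. With all arrays weighted by their spread it called 18. Of 51 called genes picked by a rule on size and list membership, 7 kept their call whichever of the 4 arrays was left out: Gatm, Apoe, Hpgd, Dhrs3, Osr1, Gpr149 and Crabp1. The other 44 lost it without at least 1 array, and none of the 51 turned its sign.

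**Figure D1:**
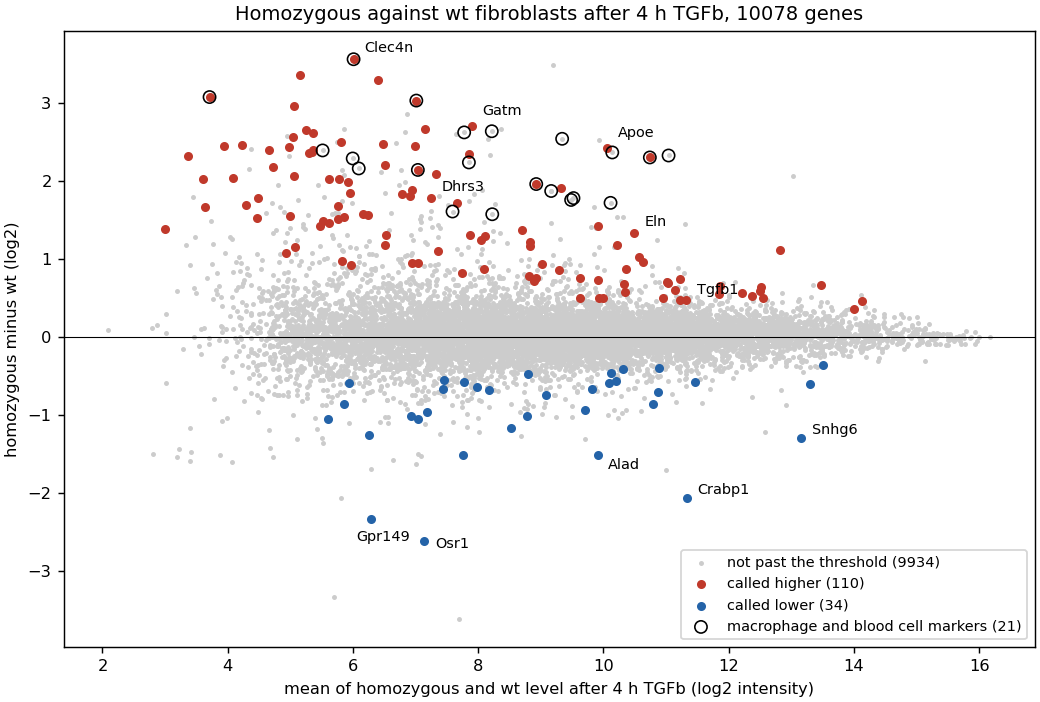
Each point is 1 of 10078 genes, with the mean level of homozygous and wt cells after 4 h of TGFb on the x axis (log2 intensity) and the homozygous minus wt difference on the y axis (log2). Red points are the 110 genes called higher, blue points the 34 called lower, and open circles the 21 measured macrophage and blood cell markers, all of which lie above 0.

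The gene with the lowest adjusted p was Gatm, which encodes the first enzyme of creatine synthesis. Its level was 6.37 and 6.73 in the wt arrays and 9.20 and 9.29 in the homozygous arrays. Both homozygous arrays stood far above both wt arrays, and the rise was 2.70 log2 units (SE 0.21, adjusted p = 0.000117). Apoe, a lipid carrier made by macrophages and by other cells, was at 8.73 and 8.97 in wt and at 11.26 in each homozygous array. The arrays of each genotype lay close together, and Apoe was 5.33-fold higher in homozygous cells (SE 0.28 log2 units, adjusted p = 0.00123). Hpgd, the enzyme that inactivates prostaglandins, was dim in both wt arrays and at least 3.17-fold higher in homozygous cells (adjusted p = 0.00296). The other rises with only the wt arrays dim, 24 in all with Hpgd, included those of the myeloid lectin Clec5a (at least 3.56-fold), the carbonic anhydrase Car2 (at least 3.08-fold), the chemokine receptor Cxcr4 (at least 3.02-fold) and the chemokine Ccl5 (at least 2.96-fold).

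The deepest fall belonged to Osr1, a zinc finger transcription factor of embryonic connective tissue. It was at 8.32 and 8.58 in wt and at 5.41 and 6.25 in homozygous cells, a fall of 6.16-fold (log2 difference -2.62, SE 0.33, adjusted p = 0.00177). The genotypes did not overlap, and the homozygous arrays came near the dim level. Gpr149, an orphan receptor gene, was at 7.65 and 7.25 in wt and at 5.37 and 4.85 in homozygous cells (-2.34, SE 0.29, adjusted p = 0.00177). Its size is uncertain, because homozygous array 2 was dim. Crabp1, a cytoplasmic carrier of retinoic acid, was at 12.35 and 12.38 in wt and at 10.42 and 10.17 in homozygous cells. It was a bright gene in all 4 arrays and was 4.18-fold lower in homozygous cells (SE 0.21 log2 units, adjusted p = 0.000758). Snhg6, a host gene of small nucleolar RNAs, was at 13.56 and 14.06 in wt and at 12.54 and 12.48 in homozygous cells (-1.30, SE 0.17, adjusted p = 0.00292). Among the other large falls were the RNA-binding protein gene Mbnl3 (-1.52), the haem synthesis gene Alad (-1.51), the ubiquitin ligase adaptor gene Klhl42 (-1.26), the acyltransferase gene Mogat2 (-1.17), the laminin chain gene Lama5 (-1.06), the DNA crosslink repair gene Dclre1a (-1.06), Lmo7 (-1.02) and the Wnt antagonist gene Dkk2 (-1.01).

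**Figure D2:**
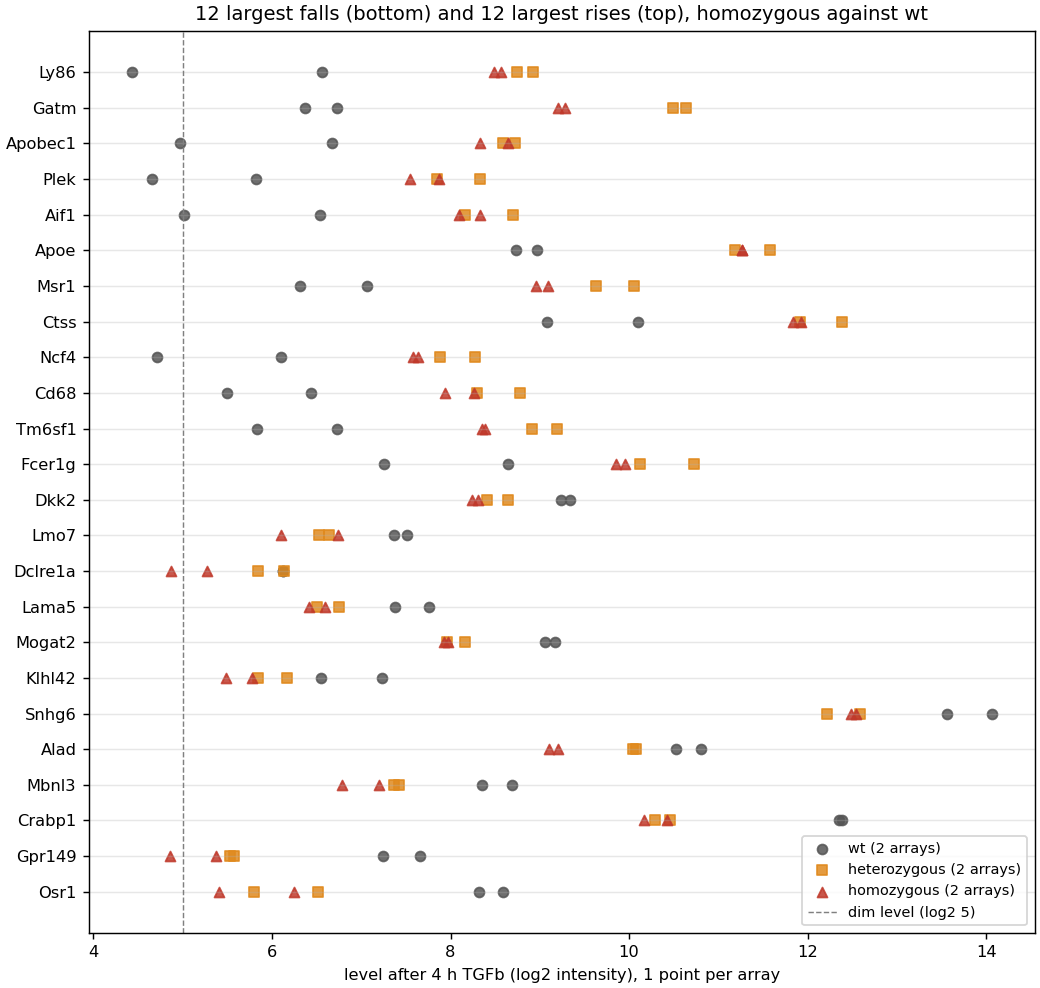
Levels after 4 h of TGFb (x axis, log2 intensity, 1 point per array) are drawn for the 12 largest rises (top) and 12 largest falls (bottom) among called genes with a mean of at least log2 5 in both genotypes, in wt, heterozygous and homozygous cells with 2 arrays each. The dashed line is the dim level of log2 5. The wt points of several rising genes, such as Ly86 at 4.43 and 6.57, lie far apart, whereas those of Gatm, Apoe, Crabp1 and Osr1 lie close together.

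Genes of macrophages and blood cells were higher in both homozygous arrays. All 21 measured macrophage and blood cell markers had both homozygous arrays above both wt arrays, which held for 23.2% of all genes, and their median difference was 2.28 log2 units (1.57 to 3.55). Pik3ap1, at 2.14 to 2.20 in the wt arrays of all times, passed the filter for measured genes only through heterozygous and homozygous arrays. So did Cybb, whose wt arrays were dim except for 6.14 in wt array 2 at 4 h. For Pik3ap1 and Cybb the direction was therefore partly built in by the filter. Of these 21, 6 rose past the threshold (28.6%) and 0 fell: the lectin gene Clec4n, Ly86, Pik3ap1, the cathepsin gene Ctss, Cd68 and the Fc receptor chain gene Fcer1g. Clec4n was at 3.27 and 5.20 in wt and at 7.93 and 7.65 in homozygous cells (3.56, SE 0.70, adjusted p = 0.0269). Ctss was at 9.08 and 10.10 in wt and at 11.84 and 11.93 in homozygous cells (2.30, SE 0.41, adjusted p = 0.0185). In both genes wt array 1 was the lowest, and the homozygous arrays were nearly equal.

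The remaining 15 markers differed in the same direction without passing the test, and the spread of the wt arrays was wide in them. Csf1r, the receptor for the macrophage growth factor, was at 7.77 and 9.49 in wt and at 10.42 and 10.40 in homozygous cells (adjusted p = 0.135). Lyz2, macrophage lysozyme, was at 8.77 and 10.99 in wt and at 12.18 and 12.22 in homozygous cells (adjusted p = 0.110). Ptprc, which encodes the pan-leukocyte protein CD45, was at 3.64 and 6.39 in wt and at 7.15 and 7.19 in homozygous cells (adjusted p = 0.196). The haemoglobin gene Hba-a1 stood at about the floor of the array in all 4 (2.34 to 2.36). Summed over the 22 markers on the array, the linear intensity was 2875 and 9986 in the wt arrays and 23160 and 23430 in the homozygous arrays, so the wt arrays stood far apart and under both homozygous arrays. The same sum over the 11 fibroblast markers was 160700 and 174700 in wt and 169600 and 185000 in homozygous cells, which overlap.

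Other large rises outside the marker list were in genes known from myeloid cells too: Apobec1 (2.66), Plek (2.47), Aif1 (2.44), the scavenger receptor gene Msr1 (2.34), the NADPH oxidase subunit gene Ncf4 (2.20) and the fatty acid transporter gene Cd36 (1.71). The lysosomal membrane protein gene Tm6sf1 rose by 2.09. These sizes are imprecise: wt array 1 was dim for Apobec1 (4.97), Plek (4.66) and Ncf4 (4.71). Leaving out 1 array in turn moved Apobec1 between 1.81 and 3.51, Plek between 1.88 and 3.05, Aif1 between 1.67 and 3.20, Ncf4 between 1.504 and 2.90 and Cd36 between 1.06 and 2.36, and each lost its call without either homozygous array. When the mean macrophage marker level of each array was added to the model, 22 of the 51 named genes were still called, including Gatm (2.04), Apoe (2.26), Dhrs3 (1.94), Osr1 (-2.86), Gpr149 (-2.65) and Crabp1 (-1.56), and the called total was 1243 with 71 of the 144 among them. That mean was 5.50 to 7.82 in the wt arrays of all times and 8.32 to 9.87 in the homozygous and heterozygous arrays. The genotypes share no marker level, so the adjusted differences are extrapolated and do not separate it from genotype. Clec4n, Ly86, Pik3ap1, Ctss, Cd68 and Fcer1g are part of the mean, so their smaller differences in that fit were partly built in. Bulk RNA cannot tell fewer cells of a type from less RNA per cell. The part of the macrophage signal in the other differences was not tested beyond that fit. Of the 9 endothelial markers on the array, Pecam1, Cdh5, Kdr, Tek and Tie1 were at 1.94 to 2.54 in the 4 arrays, far under the dim level. The 2 measured, Emcn and Egfl7, were well above it, Emcn at 8.62 and 9.67 in wt and 9.48 and 9.14 in homozygous cells and Egfl7 at 7.13 and 6.96 in wt and 7.37 and 7.49 in homozygous cells, with 0 called.

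**Figure D3:**
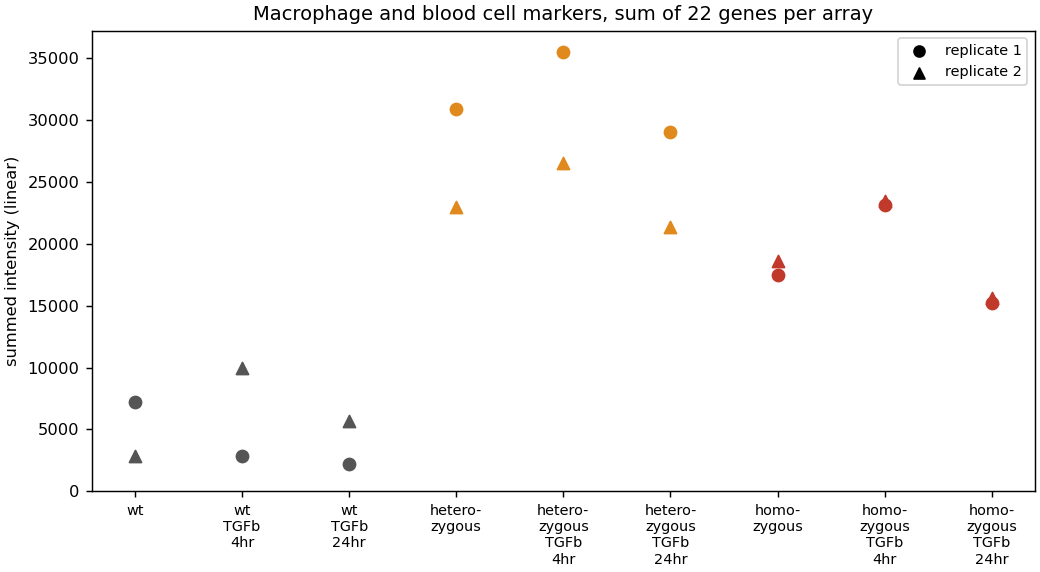
The y axis is the linear intensity summed over 22 macrophage and blood cell marker genes, with 1 point per array (circles for replicate 1, triangles for replicate 2) in the 9 groups on the x axis. The wt arrays lie between 2237 and 9986, and every homozygous or heterozygous array lies at 15200 or above.

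Of the 11 retinoic acid genes measured, 5 were called (45.5%, against 1.43% of all genes), with 4 higher and 1 lower. Retinoic acid is made from vitamin A by aldehyde dehydrogenases such as Aldh1a2, is carried by Crabp1 and Crabp2, and acts through Rar and Rxr receptors, while Dhrs3 reduces retinal back to retinol. Dhrs3 was at 6.71 and 6.01 in wt and at 8.11 and 8.15 in homozygous cells, a rise of 1.77 log2 units (SE 0.19, adjusted p = 0.00100). The 2 genotypes were well apart and the homozygous arrays nearly equal. Aldh1a2 was at 8.51 and 7.94 in wt and at 9.57 and 9.29 in homozygous cells (1.21, adjusted p = 0.0403). Crabp2 was at 9.46 and 9.81 in wt and at 10.74 and 10.87 in homozygous cells (1.17, adjusted p = 0.0495), a change opposite in sign to that of Crabp1. Aldh1a2 and Crabp2 lie outside the naming rule and were picked after their values were seen. The receptor gene Rarb passed the test but was dim in all 4 arrays (2.52 and 2.09 in wt, 3.33 and 4.04 in homozygous cells), so no size is given. The other 6 members, among them Rara (0.06), Rarg (-0.15) and the retinoic acid hydroxylase gene Cyp26b1 (-0.52), did not pass.

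Retinoic acid receptors bind direct repeats of a 6-base half-site, and Rarb is the textbook carrier of such an element near its start. Promoter windows from RefSeq (build GRCm38.p6), the 250 bases before the annotated start, were searched on both strands for 2 half-sites in the same direction, each of the form AGGTCA, the form GGGTCA, the form AGTTCA or the form GGTTCA, with 1, 2 or 5 bases between them. A match was found in 140 of 32851 windows (0.426%), and in 1 of the 4 called retinoic acid genes that have an entry. It lies in the window of Rarb, from 53 to 37 bases before the start with 5 bases between the half-sites, and is printed in capitals. The window of Crabp1, the member that fell, and the first of the windows of Dhrs3, the rising member with the lowest adjusted p, are shown beside it and hold no match. No match says only that these letters are absent from the window, and a match is a description of the sequence.
Rarb, chr14:16575477-16575726, minus strand: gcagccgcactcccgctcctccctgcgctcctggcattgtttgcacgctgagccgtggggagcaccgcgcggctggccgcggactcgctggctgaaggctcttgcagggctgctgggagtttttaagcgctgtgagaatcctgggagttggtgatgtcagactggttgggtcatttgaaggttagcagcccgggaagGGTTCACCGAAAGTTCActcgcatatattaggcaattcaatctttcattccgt
Crabp1, chr9:54764498-54764747, plus strand: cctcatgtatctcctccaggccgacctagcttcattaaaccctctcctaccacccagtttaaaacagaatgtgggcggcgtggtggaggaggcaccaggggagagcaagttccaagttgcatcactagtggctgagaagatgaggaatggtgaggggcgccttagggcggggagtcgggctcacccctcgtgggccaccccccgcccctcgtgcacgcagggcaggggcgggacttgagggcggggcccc
Dhrs3, chr4:144892577-144892826, plus strand: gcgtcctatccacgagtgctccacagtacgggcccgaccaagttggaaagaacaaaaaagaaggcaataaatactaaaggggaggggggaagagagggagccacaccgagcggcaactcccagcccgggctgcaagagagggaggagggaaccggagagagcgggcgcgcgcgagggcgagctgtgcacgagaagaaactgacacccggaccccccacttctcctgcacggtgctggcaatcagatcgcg

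Transcription factors of limb and mesenchyme progenitors were lower in homozygous cells where they passed the test. Of 17 measured, 2 fell (11.8%) and 0 rose: Osr1, described above, and the limb homeobox gene Shox2. Shox2 was at 6.23 and 6.36 in wt and at 5.70 and 5.17 in homozygous cells (-0.86, SE 0.19, adjusted p = 0.0448). For 10 of the 17 both homozygous arrays lay below both wt arrays, against 16.5% of all genes, and the list's median was -0.26. Members that did not pass include the limb mesenchyme genes Prrx1 (-0.35), Twist1 (-0.25), Tbx18 (-0.47) and Hand2 (-1.09). The 24 measured Hox genes, which set position along the body axis, had 0 calls and a median of 0.07.

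In the Wnt and Hedgehog pathways 2 of 21 measured genes were called, 1 each way (9.52%). The ligand gene Wnt11 was at 7.79 and 8.70 in wt and at 9.39 and 9.42 in homozygous cells, a rise of 1.17 log2 units (SE 0.24, adjusted p = 0.0358). The Wnt antagonist gene Dkk2 was at 9.23 and 9.34 in wt and at 8.24 and 8.31 in homozygous cells, a level that fell by 1.01 (SE 0.21, adjusted p = 0.0347). The Hedgehog receptor gene Ptch1 differed by -0.62 and its effector gene Gli2 by -0.85, and neither passed.

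Among the genes of the TGFb pathway itself, the changes that passed were in ligands. Of 21 ligand, receptor and Smad genes measured, 2 rose (9.52%, against 1.43% of all genes called), both of them ligands, and 0 fell. Tgfb1 was at 11.12 and 11.06 in wt and at 11.58 and 11.54 in homozygous cells, a rise of 1.39-fold (log2 difference 0.47, SE 0.10, adjusted p = 0.0388). Tgfb2 was at 11.15 and 10.84 in wt and at 11.43 and 11.49 in homozygous cells (0.46, SE 0.10, adjusted p = 0.0495). The pairs of arrays did not overlap for either gene, and the steps were small. Neither call held with equal array medians or without the intensity trend in limma. In untreated cells the differences were 0.64 for Tgfb1 and 0.55 for Tgfb2 (limma adjusted p = 0.0123 and 0.0297), so they were not particular to the ligand. The receptor gene Tgfbr1 was at 10.74 and 10.64 in wt and at 10.90 and 10.85 in homozygous cells. Its difference of 0.18 did not pass (adjusted p = 0.403, 95% interval -0.03 to 0.40), and a level of RNA does not show whether the receptor is active. Fst, a secreted inhibitor of activins, was at 13.47 and 13.24 in wt and at 12.57 and 12.39 in homozygous cells, a difference of -0.88 that did not pass (adjusted p = 0.0687).

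None of the 14 Smad feedback genes was called by limma, at a list median of -0.02. Smad7, the inhibitory Smad, was at 11.56 and 12.49 in wt and at 11.74 and 11.51 in homozygous cells (-0.40, 95% interval -0.87 to 0.06). The homozygous arrays fell near wt array 1 and under wt array 2. Skil, a Smad co-repressor that is itself a Smad target, was at 12.08 and 12.20 in wt and at 12.02 and 12.11 in homozygous cells (-0.07, 95% interval -0.27 to 0.12), and a second Skil probe set differed by 0.58 on dimmer signal. Among 22 measured TGFb target genes, 1 rose (4.55%) and 0 fell, with a median of 0.15. The one called was the growth factor gene Fgf2, at 8.62 and 8.50 in wt and 9.26 and 9.72 in homozygous cells (0.93, SE 0.19, adjusted p = 0.0347).

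Of 3 textbook targets none passed the test. Ccn2, a matricellular protein gene and classical Smad target, was at 15.69 and 15.76 in wt and at 15.71 and 15.78 in homozygous cells, a difference of 0.02 with a 95% interval of -0.12 to 0.17. It was near the top of the measured range in all 18 arrays and differed by 0.11 between wt cells with and without 4 h of TGFb, so a narrow interval there does not limit the true difference. Il11, a fibroblast cytokine gene induced by TGFb, was at 11.60 and 11.67 in wt and at 11.82 and 11.73 in homozygous cells, a difference of 0.14 with a 95% interval of -0.46 to 0.74. Its rise over untreated cells was 4.19 in wt and 4.86 in homozygous cells, and the interaction did not pass (adjusted p = 0.668). Id1, a target of BMP and TGFb signals, differed by 0.32 (95% interval -0.42 to 1.07), and 0 of the 14 measured BMP and Id genes were called. Lif and Vegfa, at 0.73 and 0.54, did not pass.

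In the extracellular matrix lists few genes passed the test, while more of them lay higher than lower in homozygous cells. Both homozygous arrays lay above both wt arrays for 10 of 21 genes of elastic fibres and collagen processing (47.6%, against 23.2% of all genes). The same held for 7 of 19 collagen chains (36.8%) and for 5 of 18 matricellular genes (27.8%, near the share of all genes). Both homozygous arrays lay below both wt arrays for 0, 3 and 0 genes of these lists, against 16.5% of all genes. Elastin (Eln), the core of elastic fibres, was at 9.82 in each wt array and at 11.03 and 11.26 in homozygous cells, a rise of 2.51-fold (log2 difference 1.33, SE 0.19, adjusted p = 0.00429). A second elastin probe set differed by 1.25. Eln was the only 1 of 21 measured genes of elastic fibres and collagen processing to be called (4.76%), while the cross-linking enzyme gene Lox differed by 0.19 and the microfibril gene Mfap5 by 0.87 with wt arrays at 10.00 and 11.52. None of the 19 measured collagen chains was called (median 0.16), and Col1a1 differed by 0.23 with a 95% interval of -0.00093 to 0.47. A second, dimmer Col1a1 probe set differed by -0.17. Of 18 matricellular and proteoglycan genes, 2 rose (11.1%): Thbs2 (11.52 and 11.54 in wt, 12.06 and 12.29 in homozygous cells, 0.64) and Ogn (12.25 and 12.34 in wt, 12.71 and 12.88 in homozygous cells, 0.50). The other Thbs2 probe sets differed by 0.47 and 0.12, and Thbs2 was not called with the mean of its probe sets. A second Ogn probe set differed by 0.65.

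Among 23 measured proteases and inhibitors, 1 rose (4.35%): Mmp2, a gelatinase, at 12.41 and 12.01 in wt and 12.67 and 12.91 in homozygous cells (0.58, SE 0.12, adjusted p = 0.0374). Plau, the urokinase gene, was at 11.01 in wt array 1, 6.33 in wt array 2 and 11.03 and 11.33 in homozygous cells, so its mean difference of 2.51 came from 1 array and did not pass. Of 24 contractile and cytoskeletal genes, 1 fell (4.17%) and 0 rose. It was Flna, an actin cross-linker, at 13.79 and 13.57 in wt and 13.31 and 13.33 in homozygous cells (-0.36, SE 0.08, adjusted p = 0.0374). Acta2, smooth muscle actin, was at 15.35 and 15.51 in wt and at 15.28 and 15.38 in homozygous cells, a difference of -0.10 with a 95% interval of -0.27 to 0.07. None of 10 measured integrin subunits was called.

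Feedback inhibitors of MAP kinase signalling contributed 3 rises among 14 measured genes (21.4%) and 0 falls. Dusp14, a phosphatase, was at 9.99 and 9.98 in wt and at 10.62 and 10.70 in homozygous cells (0.67, SE 0.11, adjusted p = 0.0117). Spred2, an inhibitor of Ras signalling, was at 10.22 and 9.90 in wt and at 10.55 and 10.71 in homozygous cells (0.57), although a second, dimmer Spred2 probe set differed by 0.02. Dusp6, the ERK phosphatase, was at 12.15 and 12.06 in wt and at 12.66 and 12.60 in homozygous cells (0.52). The family did not move as 1 group, since Spry2 differed by -0.77 without passing. None of the 20 immediate early genes was called (median 0.21).

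Secreted factors and stress genes gave a few more rises. The hormone gene Fgf21, 1 of 26 measured growth factor and receptor genes (3.85%), was at 4.36 and 5.18 in wt and at 6.73 and 6.85 in homozygous cells (2.02, SE 0.40, adjusted p = 0.0288), with wt array 1 dim. Of 20 chemokine and inflammatory genes 2 rose (10%): Ccl5, given above as a bound, and Ccl20, at 9.09 and 9.30 in wt and 10.77 and 10.46 in homozygous cells (1.42, SE 0.27, adjusted p = 0.0258). In the list of amino acid and stress genes controlled by ATF4, 2 of 22 rose (9.09%), Atf5 by 0.69 and Herpud1 by 0.49. For 15 of the 22 both homozygous arrays lay above both wt arrays (23.2% of all genes), at a median of 0.29. Of 12 adipogenic and lipid genes 1 rose, Cd36 (8.33%).

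Several lists had differences of one sign without a call. All but 1 of the 21 mitosis genes differed below 0 (median -0.20, for example Cenpe at -0.63), as did 18 of the 22 DNA replication genes (median -0.18), and none passed. Interferon-stimulated genes had a median of 0.63 with 0 of 21 called, and in Usp18 wt array 1 stood alone at the low end, at 3.04 against 7.84 in wt array 2 and 7.79 and 8.06 in homozygous cells. The skeletal muscle markers had a median of -1.16 with 0 of 9 called. Of the 9, 8 differed below 0 and 1, Des, above it (0.35). Their summed intensity over the 17 genes on the array was 5129 and 8099 in wt and 2584 and 2995 in homozygous cells. The actin gene Acta1 weighed most in that sum, at 11.05 and 12.66 in wt and 10.15 and 10.14 in homozygous cells. The master regulator gene Myod1 was far under the dim level (2.02 to 2.06). No gene was called in the lists of antioxidant, cholesterol synthesis, glycolysis and CDK inhibitor genes (18, 16, 18 and 15 measured).

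**Figure D4:**
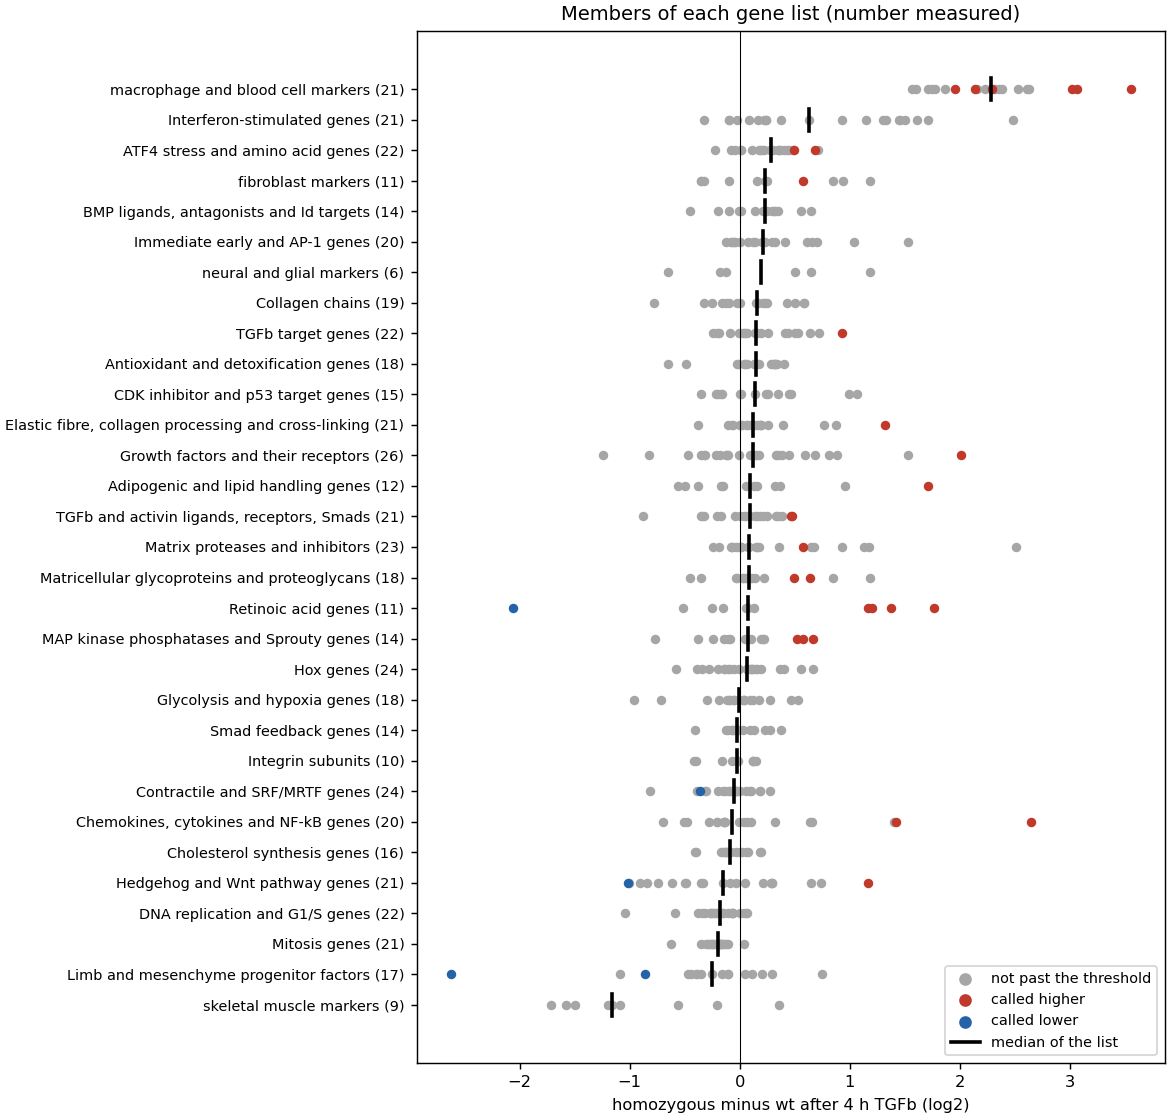
Each row is a gene list with its number of measured members, each point is 1 gene placed by its homozygous minus wt difference after 4 h of TGFb (x axis, log2), and the black bar is the list's median. Red and blue points were called higher and lower. The macrophage and blood cell markers lie apart to the right with a median of 2.28, the skeletal muscle markers to the left at -1.16, and the retinoic acid genes hold calls on both sides.

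Genes that TGFb moved in heterozygous cells were used to view the ligand programme as a whole. The size of their change uses no array of the comparison. Their call does, because the spread of each gene was pooled over all groups, the homozygous and wt groups at 4 h included. Genes of small spread pass more easily in both tests, so the choice is not independent of the comparison. The shares called in these sets are to be read with that limit. At 4 h, 28.8% of all genes differed from untreated heterozygous cells, 15.7% higher and 13.2% lower. Of the 307 that were called higher by more than 2-fold, 17 were higher in homozygous than in wt cells and 0 lower. That is 5.54%, against 1.43% of all genes. The median difference of the 307 was 0.185 log2 units. Their median response was 1.15 in wt and 1.41 in homozygous cells. Of the 292 called lower by more than 2-fold, 7 were higher and 8 lower in homozygous cells (5.14%), with a median difference of -0.07 and median responses of -1.06 in wt and -1.33 in homozygous cells. The differences between these median responses were not tested. In the 2 sets 7.49% and 5.82% of the genes differed by more than 2-fold either way between homozygous and wt cells, against 2.73% of all genes.

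Part of the difference seen under ligand was also called in cells without it, measured on other arrays of the same genotypes. The untreated comparison called 178 genes (1.77%), and 49 of the 110 genes higher at 4 h were among the 116 (1.15%) called higher there, which is 44.5% of the former and 42.2% of the latter. The median difference of those 110 was 1.44 log2 units at 4 h and 1 unit untreated, with the same sign in 109. At 24 h, where 49 genes were called (0.486%), 18 of the 110 were called higher, 60% of the 30 (0.298%) called higher there, and their median was 0.75. Of the 34 genes lower at 4 h, 14 were called lower untreated (41.2%, and 22.6% of the 62 there, 0.615% of all genes) and 11 at 24 h (32.4%, and 57.9% of the 19 there, 0.189% of all genes). Their medians were -0.73 at 4 h, -0.45 untreated and -0.39 at 24 h. The sign was that of 4 h in 26 of the 34 untreated (76.5%) and in 31 at 24 h (91.2%). Crabp1 differed by -2.06 at 4 h, -2.64 untreated and -2.76 at 24 h, Gatm by 2.70, 2.07 and 1.93, and Osr1 by -2.62, -1.73 and -2.09. The macrophage markers had medians of 2.28, 2.15 and 2.29. The labels do not say whether cells of the 3 times came from the same fetuses, so these arrays may share a source. The tests at the 3 times also used the same spread per gene, pooled over all groups. Genes of small spread pass more easily in each of them, so the shared calls are not independent.

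Whether the difference itself changed with ligand was tested as an interaction. With limma, 0 genes (0%) had a 4 h difference that departed from the untreated one, with 847 at an unadjusted p under 0.05, and 0 (0%) departed from the 24 h one, with 401. The gene closest to the threshold was Dusp14, whose difference was 0.67 at 4 h, -0.47 untreated and -0.01 at 24 h (interaction with the untreated difference 1.14, SE 0.16, adjusted p = 0.0635). In untreated cells it was at 9.42 and 9.74 in wt and at 9.09 and 9.14 in homozygous cells, below wt, and under ligand it was above. Dclre1a differed by -1.06 at 4 h against 0.32 untreated, and Prrc2a, a coiled-coil protein gene, by -0.60 against 0.38. The oxidoreductase gene Dhrs7 differed by 1.29 against 0.32, and the proteasome assembly gene Pomp by 0.20 against -0.31. Against 24 h the smallest p-values belonged to Pif1, Tifa, Dclre1a, Dusp14 and Spred2, with the DNA helicase gene Pif1 at -0.08 at 4 h and -1.57 at 24 h. Without wt array 1 at 4 h the 2 interactions called 157 and 142 genes. Without untreated wt array 1 the first called 46, whereas it called 0 without untreated wt array 2, and both called 0 without wt array 2 at 4 h. The cause was not tested.

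**Figure D5:**
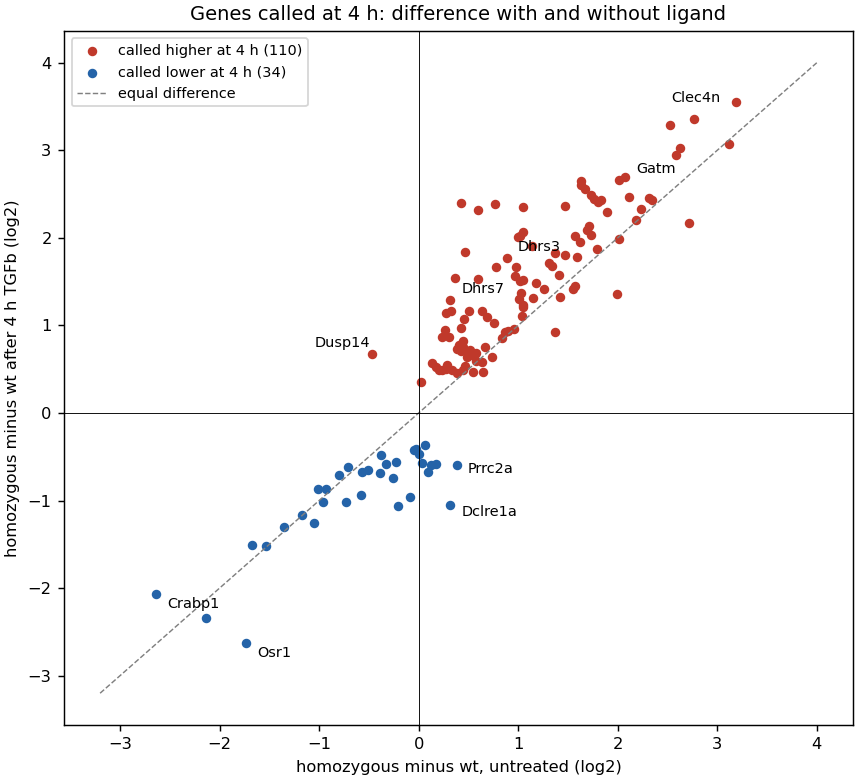
Each point is 1 of the 144 genes called at 4 h, with its homozygous minus wt difference in untreated cells on the x axis and after 4 h of TGFb on the y axis (both log2). Red points were called higher and blue ones lower, and the dashed line marks equal differences. Most points share the sign of both axes, and Dusp14, Dclre1a and Prrc2a lie on opposite sides of 0.

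Homozygous and heterozygous cells at 4 h were near each other at these genes. The 110 genes higher than wt had a median homozygous minus heterozygous difference of 0.02 (-1.32 to 1.17) and the 34 lower ones of -0.17 (-0.93 to 0.17), with 0 called in either set. The homozygous arrays enter both comparisons, so these values are given side by side and not as independent support. Xist was high in both heterozygous arrays (11.75 and 11.32) but in only 1 homozygous array (11.36, against 2.68), so this comparison is not balanced for Xist. Over all genes 2 were called (0.0198%), 1 higher and 1 lower (0.00992% each). Pax1, a paired box transcription factor gene, was higher in homozygous than in heterozygous cells by 3.51 (SE 0.50, adjusted p = 0.0484), while it stood at 6.51 and 6.36 in homozygous and 7.26 and 5.99 in wt cells. Tmem87a, a Golgi protein gene, was lower by 1.14 on the log2 scale in homozygous than in heterozygous cells (SE 0.13, adjusted p = 0.0115). Neither call held when 1 of the 4 arrays was left out in turn, when 0 genes passed each time. Gatm was at 9.20 and 9.29 in homozygous, 10.64 and 10.49 in heterozygous and 6.37 and 6.73 in wt cells, and its homozygous minus heterozygous difference of -1.32 did not pass (adjusted p = 0.0778). The macrophage marker sum was 35490 and 26530 in the heterozygous arrays at 4 h, above both homozygous arrays.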

How the data were processed

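RNA of 18 fibroblast samples was hybridised, 1 array per sample. Per the submitters' processing notes, the authors made the deposited intensity values with GCRMA, which corrects background, normalizes and summarizes each probe set. Its version was not given in the labels, and batches are unknown. Intensities are linear and were turned into log2 without further normalization. Of 45101 probe sets, 34945 carry 1 gene symbol (932 several, 9160 none, 64 controls), and 34741 of these matched RefSeq. Probe sets were kept at log2 5 or more in at least 2 arrays, and each gene was represented by its brightest one, giving 10078 genes. Genes without such a probe set are not analysed here.

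A limma 3.58.1 model (R 4.3.3) estimated 1 mean per group over all 9 groups and 18 arrays, with 9 residual and a median of 3.78 prior degrees of freedom, an intensity trend and two-sided tests adjusted by Benjamini-Hochberg. Where both arrays of a group were dim, the fold is a bound from log2 5 to the other group's mean. In simulated data made from these arrays, 76.1% of 2-fold and 38.8% of 1.5-fold changes of the main comparison were recovered, with 11 false calls. For the interaction with untreated cells 53.7% of 2-fold changes were recovered, with 8 false calls. The simulated noise was independent and of equal spread in all groups. The real wt arrays at 4 h stood further apart than the homozygous ones (0.387 against 0.196), so these shares may not hold for the real comparison.

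Members, gene lists and rules were chosen with earlier results of these data known. Named genes are the 12 largest called rises and falls with both genotype means at log2 5 or more, up to 5 bounded rises, up to 3 called members of each list and 10 TGFb-related genes, of which 9 were measured. Values of other list members were picked after they were seen. Alternatives changed the filter, probe set choice, normalization, pseudocount, variance model, covariates, replicate block and arrays used.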

Additional observations from a re-analysis of the deposited data

How the results depend on the processing

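The 144 calls of homozygous against wt at 4 h became 18 with array weights, 0 with the 4 arrays alone (lowest adjusted p = 0.138), 263 with Xist as a covariate, 1243 with the macrophage marker mean as a covariate (which moved the median of all genes to 0.13) and 16 to 1073 when 1 array was left out. They were 97 to 157 under the other filters, probe set rules, normalizations, pseudocount and variance model. The interaction with untreated cells, 0 genes, gave 4 without a filter, 1 with quantile normalization and 0 to 157 with 1 array left out. That with 24 h, also 0, gave 3 without a filter and 0 to 142 with 1 array left out. Homozygous against heterozygous, 2 genes, gave 14 without a filter, 1 with a mean log2 of at least 6, 1 with log2 of the intensity plus 16, 5 with array weights, 4 with the arrays compared alone, 1 with Xist, 6 with the macrophage mean and 0 with any array left out.

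No label says that replicate numbers pair arrays, and deviations of same-numbered arrays correlated at -0.192 between the 2 groups and at 0.61 and -0.492 with the untreated arrays of the homozygous and wt genotype. With the replicate number as a block over all groups the 4 comparisons called 135, 1, 0 and 1 genes, and with the block within genotype 165, 0, 0 and 1, of which 81 were among the 144. A crossed replicate block for wt, chosen after seeing the data, called 245, 0, 0 and 4.

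Signs turned only for genes not called in the comparison with wt. Skil was 0.25 with the mean of its probe sets and Ccn2 -0.15 with the macrophage mean. With 1 array left out, Ccn2 ranged from -0.00974 (without wt array 1) to 0.058, and was -0.00847 without homozygous array 2. Smad7 ranged from -0.87 to 0.062 (without wt array 2) and Tmem87a from -0.022 (without wt array 1) to 0.21. None of the 51 named called genes turned its sign under any of these alternatives. The cause of these shifts was not tested. The 2 arrays a group limit the precision, and changes of dim genes cannot be sized.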

Other observations

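The caveolin genes and a group of lysosomal genes were picked after their values were seen and carry no test of their own. The caveolin genes Cav1 and Cav2, which coat small pits of the cell membrane, were both lower. Cav1 was at 13.60 and 13.61 in wt and at 13.00 and 12.99 in homozygous cells (-0.61, limma adjusted p = 0.00625), and Cav2 at 11.23 and 11.22 against 10.39 and 10.64 (-0.71, adjusted p = 0.0441). Cav1 also differed by -0.71 untreated and by -0.62 at 24 h. Genes of lysosomal enzymes and membrane proteins were among the rises, with Ctsc at 1.11, Dpp7 at 0.75, Scarb2 at 0.73, Fuca2 at 0.71, Lgmn at 0.69, Man2b1 at 0.49 and Ctsz at 0.35. Macrophages are rich in such genes, and the macrophage marker sum given above was also higher in both homozygous arrays than in both wt arrays. The part of the macrophage signal in these rises was not tested, and lysosomal genes that did not rise were not counted.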
